A study of Arabidopsis thaliana with 5 samples.

Results

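The clade A protein phosphatases of type 2C are the negative regulators at the head of abscisic acid (ABA) signalling in Arabidopsis thaliana. The group was chosen by locus and holds 9 genes of the 33602 loci in the deposited tables: ABI1 (AT4G26080), ABI2 (AT5G57050), HAB1 (AT1G72770), HAB2 (AT1G17550), AHG1 (AT5G51760), AHG3 (AT3G11410, also PP2CA), HAI1 (AT5G59220), HAI2 (AT1G07430) and HAI3 (AT2G29380). RNA came from nuclei that were sorted for green fluorescence out of 0.5 cm root tips of seedlings grown for 5 days, 120000 nuclei to a library. The 3 smr1 libraries (replicates 1, 2 and 4) came from mutants of SIAMESE-RELATED 1 (SMR1), whose product binds and inhibits cyclin-dependent kinases, and the 2 Col-0 libraries (replicates 2 and 4) from the wild-type accession. Plants of both genotypes carried the SMR1:GUS-GFP construct, whose promoter decides which nuclei are sorted, and the kind of smr1 allele is not given in the sources used here. The series' design text calls the libraries biological replicates.

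In the absence of ABA these phosphatases bind and dephosphorylate SnRK2 kinases and keep them inactive. When ABA binds its receptors of the PYR/PYL family, the receptors dock on the phosphatases and block them, and the freed kinases phosphorylate ABF transcription factors and ion channels. Several of the phosphatase genes are themselves induced by ABA, which closes a negative feedback loop, and in roots ABA signalling is known for its part in growth under water deficit.

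Library totals lay between 24918795 and 26823753 reads, and a floor of 3 reads per library corresponds to 0.112 to 0.120 CPM (reads scaled to the library total). All later CPM values are also scaled by the TMM normalization factor of each library. SMR1 itself stood at 18.8, 14.3 and 20.8 TPM (abundance scaled to transcript length and library) in smr1 replicates 1, 2 and 4, against 31.8 and 64.9 TPM in Col-0 replicates 2 and 4. Its log2 ratio (smr1 over Col-0) was -1.46 ± 0.31 (standard error, SE), which edgeR did not call (adjusted p = 0.725) and DESeq2 did (adjusted p = 0.0115). Root markers were detected in every library. Summed TPM of the 2 non-hair epidermis markers was 95.0 to 105.6 in smr1 and 71.3 to 84.1 in Col-0, and that of the 6 xylem markers 779 to 941 in smr1 and 942 to 991 in Col-0. The 5 root cap markers summed to 8.59 to 10.8 TPM in smr1 and 6.72 to 7.66 TPM in Col-0. In these 3 lists the genotypes did not overlap, for xylem only by 941.1 TPM in smr1 against 941.7 TPM in Col-0. These are sums, in which abundant genes weigh most. By single genes in CPM, all smr1 libraries lay below both Col-0 libraries in 4 xylem and 2 root hair markers. They lay above both in 1 xylem, 3 root cap, 2 non-hair epidermis and 2 root meristem markers. Of all single tested loci, 10.1% lay below in this way and 13.7% above, which is not a rate for summed lists. Fitted log2 ratios were negative in 5 of the 6 xylem and all 4 root hair markers, and positive in all 5 root cap markers. In summed TPM the genotypes overlapped for the 4 root hair markers (8.36 to 14.0 TPM in smr1 and 12.1 to 18.4 TPM in Col-0) and the 8 endodermis markers (49.7 to 59.9 TPM in smr1 and 39.1 to 66.8 TPM in Col-0). They also overlapped for the 4 phloem markers (5.36 to 15.03 TPM in smr1 and 7.67 to 14.6 TPM in Col-0) and the 3 root meristem markers (1.97 to 8.31 TPM in smr1 and 1.54 to 8.19 TPM in Col-0). The part of these markers in the phosphatase results was not tested, and in bulk RNA fewer cells of a type and less RNA per cell cannot be told apart.

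The 9 genes spanned more than 3 orders of magnitude on the TPM scale, which is corrected for length, so levels of different genes can be set side by side. In each of the 5 libraries ABI1 ranked the highest and AHG3 the next. HAB2, HAI1 and HAB1 followed in an order that changed between libraries, and ABI2, HAI3, HAI2 and AHG1 closed the order in every library. Mean levels over the 5 libraries were 229.9 TPM for ABI1, 124 TPM for AHG3, 64.9 TPM for HAB2, 43.8 TPM for HAI1, 37.3 TPM for HAB1, 15.1 TPM for ABI2, 2.91 TPM for HAI3, 2.16 TPM for HAI2 and 0.0966 TPM for AHG1. The library ranges of ABI1 and AHG3, of AHG3 and HAB2, of HAB1 and ABI2, and of HAI2 and AHG1 did not overlap, whereas HAB2 overlapped with HAI1, HAI1 with HAB1, and HAI3 with HAI2.

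**Figure D1:**
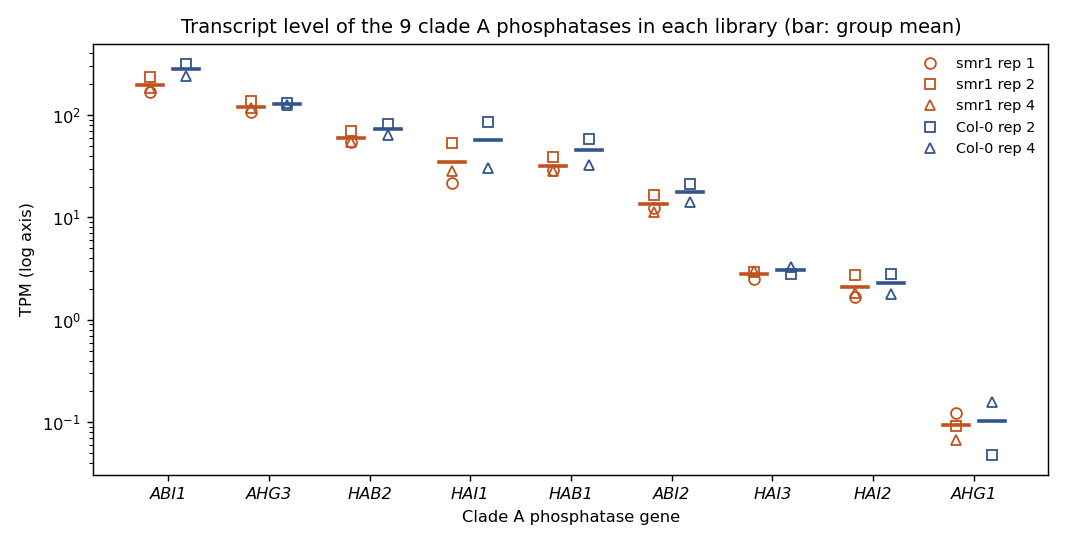
TPM of each clade A phosphatase (log axis) in the 3 smr1 libraries (orange, left) and the 2 Col-0 libraries (blue, right), with symbols for the replicate number and a bar for each group mean. ABI1 is the highest gene in each library and AHG1 the lowest, and only for ABI1 do all smr1 points lie below both Col-0 points.

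The letters of the ABA-responsive element (ABRE), the site bound by ABF transcription factors, were looked for because several members are known to be ABA-induced. The 300 bases before each annotated gene start were searched on both strands for ACGTGGC or ACGTGTC, which share the letters ACGTG and, on opposite strands, can overlap at their ACGT. At least 1 match stood before 4 of the 9 members, and before 7.10% of 26711 protein-coding loci in the files. AHG3 had 2 matches, where 1.52% of the loci had at least 2, and ABI1, HAB1 and HAI2 had 1 each. The windows of 30 bases below run 5′ to 3′ on the strand of the gene in TAIR10.1, with the matched letters in capitals. They are ABI1 at chr4:13222646-13222675 (minus strand), HAB1 at chr1:27389918-27389947 (plus), AHG3 at chr3:3586063-3586092 and chr3:3585942-3585971 (minus), and HAI2 at chr1:2283081-2283110 (minus).
ABI1: actcggactacGACACGTcatttaatgaaa
HAB1: caaagactaatACGTGTCcttttattaatc
AHG3, farther: actgtgattggGCCACGTtaacggcgtatc
AHG3, nearer: caccaaacggtACGTGTCggatcctgcccg
HAI2: cttgtcattggGCCACGTatatctccacct
The matched letters began 288 bases before the gene start in ABI1, 19 in HAB1, 231 and 110 in AHG3 and 271 in HAI2. A match is a description of the sequence and not of binding, and a window without these letters says nothing of the factor.

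The comparison of smr1 with Col-0 sets nuclei that express the reporter with and without the mutation side by side. None of the 9 phosphatase genes was called different. Of the 8 that passed the expression filter, edgeR called 0 higher and 0 lower at an adjusted p under 0.05, where it called 0.00496% of all 20151 tested loci higher and 0.00% lower. Before adjustment, at p under 0.05, edgeR had 1 member lower (ABI1) and 0 higher, where 2.89% of all loci were lower and 3.96% higher. DESeq2, which called 0.0618% of 17800 loci lower and 0.169% higher, called 0 members, with ABI1 and HAB1 lower before adjustment, as were 2.97% of 20151 loci. Limma voom also called 0 members, with ABI1 lower before adjustment, as were 2.79% of loci. The edgeR count before adjustment turned on single libraries. It was 5 members (ABI1, ABI2, HAB1, HAB2 and HAI1) when smr1 replicate 2 was left out and the same 5 when Col-0 replicate 4 was, where 3.48% and 5.83% of the loci tested in those fits were lower. It was 0 members when smr1 replicate 1, smr1 replicate 4 or Col-0 replicate 2 was left out, where 1.99%, 1.79% and 4.08% of loci were lower. All 8 fitted log2 fold changes (log2 ratios of smr1 over Col-0) were negative, where 48.8% of all loci were. Their median was -0.41, against 0.0065 over all loci tested. The size of this shift rests on the Col-0 libraries: leaving out Col-0 replicate 2 gave a median of -0.12, and leaving out Col-0 replicate 4 gave -0.65.

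Summed over the 9 genes, the phosphatases stood at 398, 558 and 427 TPM in smr1 replicates 1, 2 and 4, against 702 and 514 TPM in Col-0 replicates 2 and 4. The means were 461 ± 85.6 TPM in smr1 (SD, n = 3) and 608 ± 133 TPM in Col-0 (SD, n = 2). Col-0 replicate 2 was the highest library, but smr1 replicate 2 lay above Col-0 replicate 4, so the genotypes overlapped. The same sum was 0.0694%, 0.0967% and 0.0760% of all reads in the smr1 libraries and 0.123% and 0.0910% in the Col-0 libraries.

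ABI1 encodes the phosphatase whose dominant mutation gave the ABA-insensitive abi1-1 plants, and it is the most abundant member here. Its locus spans chr4:13219915-13222376 of the TAIR10.1 build (minus strand), and the coding sequence is in 4 segments. It had 7266, 10947 and 8679 reads in smr1 replicates 1, 2 and 4, and 14047 and 11408 reads in Col-0 replicates 2 and 4. Its level was 169, 237 and 183 TPM in smr1, against 318 and 242 TPM in Col-0. All 3 smr1 libraries lay below both Col-0 libraries, though smr1 replicate 2 came close to Col-0 replicate 4. Such a separation downwards in CPM was seen in 10.1% of all tested loci and in 1 of the 8 tested members. Means were 196 ± 36.2 TPM in smr1 (SD, n = 3) and 280.3 ± 53.5 TPM in Col-0 (SD, n = 2). The log2 ratio was -0.58 ± 0.19 (SE), and it did not pass the threshold (edgeR adjusted p = 0.725). Leaving out Col-0 replicate 2 gave -0.35, and leaving out Col-0 replicate 4 gave -0.79. The adjusted p of 0.725 recurs below because the adjustment gives many loci the same value.

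ABI2 is the closest relative of ABI1 and acts redundantly with it. Its coding sequence is 77.7% identical to that of ABI1 over 1233 aligned bases, with 26 bases as the longest identical stretch. ABI2 was at 12.3, 16.6 and 11.2 TPM in smr1, against 21.3 and 14.0 TPM in Col-0. Smr1 replicate 2 lay above Col-0 replicate 4, so the groups overlapped. Means were 13.4 ± 2.84 TPM in smr1 (SD, n = 3) and 17.7 ± 5.18 TPM in Col-0 (SD, n = 2), and the log2 ratio was -0.47 ± 0.24 (SE; edgeR adjusted p = 0.733). Without Col-0 replicate 2 it was -0.12, and without Col-0 replicate 4 it was -0.76.

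HAB1 and HAB2 were named for their likeness to ABI1 and ABI2, and HAB1 also binds and dephosphorylates the SWI/SNF chromatin remodeller BRAHMA. Their coding sequences are 77.1% identical over 1512 aligned bases, with a longest identical stretch of 33 bases. HAB1 was at 28.7, 38.7 and 28.4 TPM in smr1, against 58.2 and 32.4 TPM in Col-0. Col-0 replicate 2 stood above the other 4 libraries, which overlapped. The log2 ratio of HAB1 was -0.58 ± 0.27 (SE; edgeR adjusted p = 0.729), with -0.079 when Col-0 replicate 2 was left out and -0.96 when Col-0 replicate 4 was. HAB2 was at 55.1, 70.1 and 54.3 TPM in smr1, against 81.6 and 63.5 TPM in Col-0. Its groups also overlapped, at smr1 replicate 2 and Col-0 replicate 4, and its log2 ratio was -0.35 ± 0.17 (SE; edgeR adjusted p = 0.729). Without Col-0 replicate 2 it was -0.14, and without Col-0 replicate 4 it was -0.54.

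Among the members, HAB1 and ABI2 have more than 1 transcript model with reads. In HAB1 the models 1 and 3 have the same coding sequence and divide their reads evenly, while model 2 keeps an intron of 123 bases (chromosome 1, from 27392394 to 27392516 of TAIR10.1, plus strand) and stops inside it. The HAB1.2 protein, known to bind SnRK2.6 without inhibiting it, ends after 406 codons in place of 511. The sequences below show the letters that tell the models apart, 5′ to 3′ on the plus strand, with 10 bases of the shared exon in lower case and the next 20 coding bases in capitals. Those of HAB1.1 span chr1:27392384-27392393 and chr1:27392517-27392536, and those of HAB1.2 span chr1:27392384-27392413.
HAB1.1: aggtccatcgGTGACAGATATCTGAAGCCA
HAB1.2: aggtccatcgGTAAGCATTGCTTCTTTTGA
The capitals of HAB1.2, the start of the intron, are its only coding bases that HAB1.1 lacks.

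HAB1.2 took 17.9%, 13.4% and 10.4% of the TPM of its locus in smr1 replicates 1, 2 and 4, against 13.1% and 11.9% in Col-0 replicates 2 and 4. These shares came from 205, 222 and 129 expected reads in smr1 and 311 and 169 in Col-0. The smr1 libraries lay on both sides of the Col-0 libraries. Means were 13.9% ± 3.77 in smr1 (SD, n = 3) and 12.5% ± 0.817 in Col-0 (SD, n = 2), a difference of 1.37 percentage points (two-sided exact permutation test, p = 0.70, where the smallest p that 10 splits allow is 0.10). Reads in the long stretch that the models share cannot be assigned to one of them, so the division is an estimate. The RNA came from nuclei, and reads from transcripts not yet spliced at the retained intron cannot be told apart from those of HAB1.2.

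ABI2 model 2 removes 120 bases of the coding sequence (chromosome 5, from 23087802 to 23087921, plus strand), which leaves 383 codons in place of 423. The letters at that point are given with the 15 shared bases (chr5:23087787-23087801) in lower case and the next 15 bases of each model in capitals, chr5:23087802-23087816 in ABI2.1 and chr5:23087922-23087936 in ABI2.2.
ABI2.1: gaggctattgcaacgGTGAATCTAGGGTTA
ABI2.2: gaggctattgcaacgGTGTGGATATCTCCG
ABI2.2 was given 36.7, 0 and 0 expected reads in smr1 replicates 1, 2 and 4, and 25.4 and 10.8 in Col-0 replicates 2 and 4. Its share of the locus was 7.99% in smr1 replicate 1 and 3.12% and 1.90% in the Col-0 libraries. No reads were given to it in 2 of the 3 smr1 libraries and its highest share was in the third, so the genotypes overlapped (two-sided exact permutation test on the share, p = 1.00).

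AHG3, the major phosphatase in many ABA responses of seedlings and a partner of potassium channels, was the steadiest of the abundant members and the one with 2 ABRE matches. It was at 107, 136 and 116 TPM in smr1, against 132 and 126 TPM in Col-0. Its highest library was smr1 replicate 2, and the 2 Col-0 libraries differed by only 1.05-fold. Means were 119.9 ± 15.05 TPM in smr1 (SD, n = 3) and 129 ± 4.83 TPM in Col-0 (SD, n = 2). The log2 ratio was -0.17 ± 0.13 (SE; edgeR adjusted p = 0.811), with -0.084 when smr1 replicate 1 was left out and -0.27 when smr1 replicate 2 was.

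HAI1, HAI2 and HAI3 are the highly ABA-induced phosphatases, named for their strong induction by the hormone, and HAI1 is a negative regulator of responses to low water potential. HAI1, whose window held no ABRE match, was the most variable member that passed the filter. It was at 21.8, 53.5 and 28.5 TPM in smr1, against 84.6 and 30.5 TPM in Col-0. Both replicate 2 libraries were high, and the other 3 libraries lay close together. The spread inside a genotype was 2.46-fold in smr1 and 2.78-fold in Col-0, while the fitted mean of smr1 was 0.572 times that of Col-0. The log2 ratio was -0.81 ± 0.51 (SE; edgeR adjusted p = 0.766). Its sign depended on a single library: it became 0.14 when Col-0 replicate 2 was left out and -1.38 when Col-0 replicate 4 was.

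HAI2, which also interacts with the potassium channel AKT1, was at 1.66, 2.74 and 1.82 TPM in smr1, against 2.77 and 1.79 TPM in Col-0. These levels came from 73 to 129 reads in smr1 and 86 and 125 reads in Col-0. Both replicate 2 libraries were again the higher ones, and the groups overlapped. Its log2 ratio was -0.20 ± 0.31 (SE; edgeR adjusted p = 0.913), with 0.16 when Col-0 replicate 2 was left out and -0.51 when Col-0 replicate 4 was. HAI3 was at 2.53, 2.95 and 2.97 TPM in smr1, against 2.83 and 3.26 TPM in Col-0. It did not share the high replicate 2 libraries, and its log2 ratio was -0.17 ± 0.19 (SE; edgeR adjusted p = 0.875), with -0.091 when smr1 replicate 1 was left out and -0.096 when Col-0 replicate 4 was.

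AHG1, a phosphatase of seeds and germination, was close to the floor of detection. It had 5, 4 and 3 reads in smr1 replicates 1, 2 and 4, and 2 and 7 reads in Col-0 replicates 2 and 4. It did not pass the expression filter, and no fold change is given. The 4 seed storage genes looked at beside it summed to 0.228 to 0.674 TPM in smr1 and 0.139 to 0.481 TPM in Col-0. DOG1, the dormancy protein that binds AHG1 and AHG3, had 0 reads in every library, which allows up to 3 reads in each by counting error alone.

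**Figure D2:**
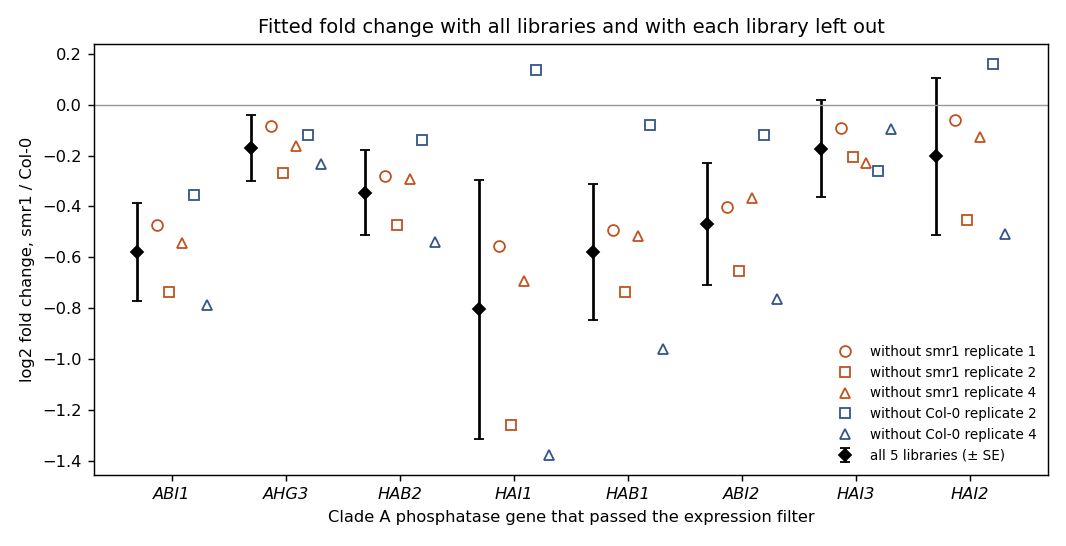
Log2 fold change of smr1 over Col-0 for the 8 tested phosphatases: diamonds with SE bars for all 5 libraries, open symbols for the fit without 1 library (orange, an smr1 library left out; blue, a Col-0 library left out). Leaving out Col-0 replicate 2 (blue squares) moves HAI1 and HAI2 above 0, to 0.14 and 0.16, and leaving out Col-0 replicate 4 (blue triangles) moves HAI1 to -1.38.

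The same levels can be read as shares of the family. ABI1 supplied 42.4%, 42.5% and 42.9% of the summed TPM of the 9 genes in smr1 replicates 1, 2 and 4, against 45.3% and 47.2% in Col-0 replicates 2 and 4. AHG3 supplied 26.9%, 24.4% and 27.3% in smr1, against 18.9% and 24.5% in Col-0. For ABI1 the genotypes did not overlap, and for AHG3 they overlapped at smr1 replicate 2 and Col-0 replicate 4. The shares of HAB2 and HAI2 did not overlap either, and were higher in smr1. HAB2 supplied 12.6% to 13.9% in smr1 and 11.6% to 12.4% in Col-0. HAI2 supplied 0.417% to 0.490% in smr1 and 0.348% to 0.395% in Col-0. The share of HAI1 was 5.47%, 9.58% and 6.68% in smr1, against 12.05% and 5.93% in Col-0, and was highest in the replicate 2 library of each genotype. The shares of the members other than ABI1, HAB2 and HAI2 overlapped. For single loci in CPM, the genotypes separated fully downwards in 10.1% of all tested loci and upwards in 13.7%. No such rate was worked out for shares. The shares named here were singled out after their values were seen and were not tested.

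**Figure D3:**
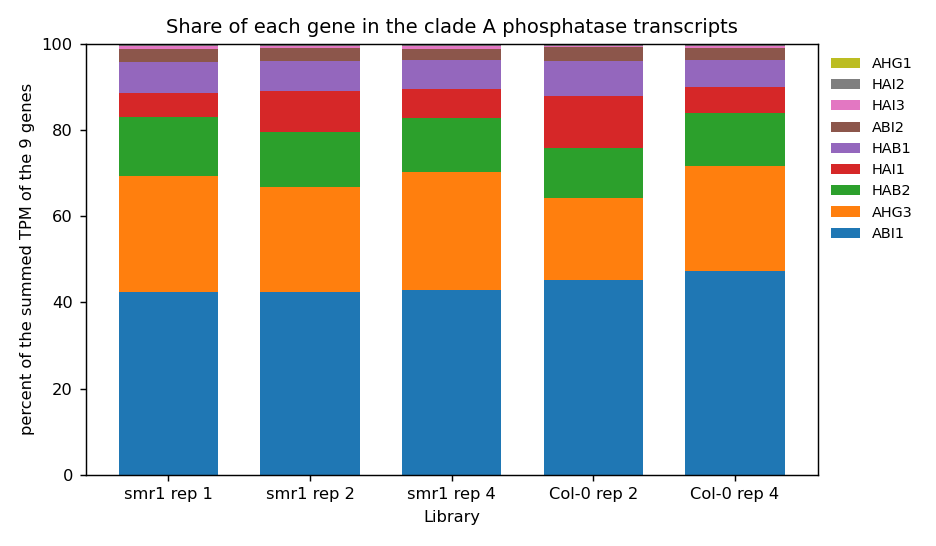
Share of each phosphatase in the summed TPM of the 9 genes, as stacked bars that add to 100% for each library, smr1 on the left and Col-0 on the right. ABI1 takes 42.4% to 42.9% in smr1 and 45.3% to 47.2% in Col-0, and the band of HAI1 is widest in the replicate 2 libraries.

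Of the 14 ABA receptors, 10 passed the filter and edgeR called 0 higher and 0 lower, and DESeq2 and limma voom also called 0. Before adjustment edgeR had 0 higher and 2 lower, where 3.96% of all tested loci were higher and 2.89% lower. Of the 10, 5 had positive and 5 negative log2 fold changes, with a median of 0.05. PYL7 was at 29.5, 58.6 and 35.2 TPM in smr1, against 113.6 and 52.4 TPM in Col-0, with both replicate 2 libraries high and a log2 ratio of -1.08 ± 0.40 (SE; edgeR adjusted p = 0.725). PYL9 was at 32.4, 44.5 and 31.1 TPM in smr1, below its 57.5 and 46.8 TPM in Col-0, with a log2 ratio of -0.59 ± 0.19 (SE; edgeR adjusted p = 0.725). PYL5 was at 80.1, 103.1 and 77.2 TPM in smr1, against 133 and 90.6 TPM in Col-0, with overlapping groups and a log2 ratio of -0.43 ± 0.21 (SE; edgeR adjusted p = 0.729). With Col-0 replicate 2 left out, PYL7 was at -0.39 and PYL5 at -0.10, and with Col-0 replicate 4 left out PYL7 was at -1.55 and PYL5 at -0.70. The summed TPM of the phosphatases was 0.820, 1.18 and 0.872 times that of the receptors in smr1, against 1.31 and 1.00 times in Col-0.

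The SnRK2 kinases, whose ABA-activated members are direct substrates of the phosphatases, had 9 of 10 members tested. EdgeR, DESeq2 and limma voom called 0 of them higher or lower. By edgeR before adjustment 0 were higher and 1 lower, where 3.96% of all tested loci were higher and 2.89% lower. The median log2 fold change of the kinases was -0.05, with 3 positive and 6 negative. SNRK2.10, a kinase activated by osmotic stress rather than ABA, was at 106.2, 115 and 92.3 TPM in smr1, below its 131 and 119 TPM in Col-0 (log2 ratio -0.32 ± 0.12, SE; edgeR adjusted p = 0.725). SNRK2.1 had a log2 ratio of 0.12 ± 0.12 (SE), and from 0.041 to 0.19 with 1 library left out. SNRK2.7, under 1.5 TPM in each library, had -0.68 ± 0.59 (SE), and 0.50 without Col-0 replicate 4.

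Among the ABA transcription factors, 7 of 9 were tested and edgeR, DESeq2 and limma voom called 0. By edgeR before adjustment 0 were higher and 1 lower, where 3.96% of all tested loci were higher and 2.89% lower. The median log2 fold change of these factors was -0.03, with 3 positive and 4 negative. ABF2, which binds ABRE sequences, was at 24.9, 26.4 and 25.8 TPM in smr1, below its 32.2 and 36.4 TPM in Col-0 (log2 ratio -0.48 ± 0.10, SE; edgeR adjusted p = 0.725). AREB3, of the same family, was at 15.6, 15.3 and 15.8 TPM in smr1, above its 12.5 and 13.04 TPM in Col-0 (log2 ratio 0.23 ± 0.12, SE; edgeR adjusted p = 0.740). ABI5, a factor of seeds and young seedlings, stayed under 1 TPM, with a log2 ratio of -0.58 ± 0.36 (SE).

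Other targets of the phosphatases had 7 of 8 members tested, with a median log2 fold change of -0.08. EdgeR, DESeq2 and limma voom called 0 of them. By edgeR before adjustment 0 were higher and 2 lower, where 3.96% of all tested loci were higher and 2.89% lower. SLAH3, an anion channel inhibited by ABI1, was at 26.2, 32.8 and 25.8 TPM in smr1, against 51.4 and 39.1 TPM in Col-0. HB6, a homeodomain protein that interacts with ABI1, was at 87.9, 95.2 and 85.1 TPM in smr1, against 112.7 and 111.2 TPM in Col-0. In both genes all smr1 libraries lay below both Col-0 libraries, and the log2 fold changes were -0.75 (SE 0.17) for SLAH3 and -0.39 (SE 0.10) for HB6, each with an edgeR adjusted p of 0.725. Such a separation downwards in CPM was seen in 2 of the 7 tested members of this list and in 10.1% of all tested loci. GORK, an outward potassium channel, had a log2 ratio of 0.10 ± 0.12 (SE), and 0.050 with Col-0 replicate 4 left out.

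Of the 4 listed genes that act on the phosphatases, edgeR tested 3 and called 0, with 0 at p under 0.05 before adjustment, while DESeq2 and limma voom called 0. RGLG1, a ubiquitin ligase that targets AHG3, was at 38.6, 48.7 and 44.0 TPM in smr1, against 63.8 and 47.2 TPM in Col-0 (log2 ratio -0.41 ± 0.17, SE; edgeR adjusted p = 0.725). RGLG1 was at -0.16 with Col-0 replicate 2 left out and at -0.64 with Col-0 replicate 4 left out. PUB12 and PUB13, ubiquitin ligases that target ABI1, had log2 fold changes of -0.12 (SE 0.30) and 0.019 (SE 0.11), and both changed sign with 1 library left out.

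Genes of ABA supply, breakdown and transport had 13 of 17 members tested and 0 called by edgeR, DESeq2 or limma voom. By edgeR before adjustment 1 was higher and 0 lower, where 3.96% of all tested loci were higher and 2.89% lower. The median log2 fold change of this list was -0.23, with 3 positive and 10 negative. CYP707A3, an ABA hydroxylase of hormone breakdown, was at 8.47, 8.46 and 10.5 TPM in smr1, above its 6.81 and 6.17 TPM in Col-0 (log2 ratio 0.43 ± 0.17, SE; edgeR adjusted p = 0.725). CYP707A1, another ABA hydroxylase, was at 104.7, 139.5 and 107.5 TPM in smr1, against 170.2 and 113.3 TPM in Col-0, with a log2 ratio of -0.34 ± 0.21 (SE). With Col-0 replicate 2 left out the ratio of CYP707A1 was -0.0021, and with Col-0 replicate 4 left out it was -0.63. ABA4, needed to make the ABA precursor neoxanthin, had a log2 ratio of -0.51 ± 0.34 (SE), with -0.82 when Col-0 replicate 2 was left out and -0.11 when Col-0 replicate 4 was.

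The ABA-induced genes had 15 of 18 members tested and 0 called by edgeR, DESeq2 or limma voom. By edgeR before adjustment 0 were higher and 3 lower, where 3.96% of all tested loci were higher and 2.89% lower. All 15 log2 fold changes were negative, where 48.8% of those of all tested loci were, and their median was -0.62. RD29A, a desiccation-responsive gene with ABRE and drought elements, was at 48.2, 88.3 and 52.1 TPM in smr1, against 175.5 and 68.2 TPM in Col-0 (log2 ratio -1.03 ± 0.43, SE; edgeR adjusted p = 0.725). AFP1, an ABI5-binding protein, was at 45.6, 69.4 and 50.7 TPM in smr1, against 119 and 71.5 TPM in Col-0 (log2 ratio -0.85 ± 0.27, SE; edgeR adjusted p = 0.725). RD26, a NAC transcription factor, was at 86.2, 134 and 98.0 TPM in smr1, against 180.4 and 129 TPM in Col-0 (log2 ratio -0.62 ± 0.22, SE; edgeR adjusted p = 0.725). With Col-0 replicate 2 left out the ratios were -0.17 for RD29A, -0.42 for AFP1 and -0.34 for RD26, and with Col-0 replicate 4 left out RD29A reached -1.57. In RD29A, AFP1 and RD26 the replicate 2 library was the highest of each genotype, as it was in every tested phosphatase except HAI3. In TPM, the same held for PYL5, PYL7, PYL9, SNRK2.10, SLAH3, HB6, GORK, RGLG1 and CYP707A1 among the other partner genes named above. It did not hold for SNRK2.1, SNRK2.7, ABF2, AREB3, ABI5, PUB12, PUB13, CYP707A3 and ABA4.

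Library by library, the phosphatases stood in the same order as the ABA-induced genes and the genes of ABA supply, breakdown and transport. The mean log2 CPM of the 8 tested phosphatases, relative to the mean of the 5 libraries, was -0.40, 0.16 and -0.24 in smr1 replicates 1, 2 and 4, against 0.52 and -0.04 in Col-0 replicates 2 and 4. The same level of the ABA-induced genes was -0.64, 0.24 and -0.34 in smr1, against 0.85 and -0.11 in Col-0. The genes of ABA supply, breakdown and transport were at -0.24, 0.05 and -0.04 in smr1, against 0.21 and 0.03 in Col-0. These lists were highest in Col-0 replicate 2, then smr1 replicate 2, Col-0 replicate 4, smr1 replicate 4 and smr1 replicate 1. The receptors ran from -0.20 to 0.01 in smr1 and were at 0.15 and 0.06 in Col-0, and the SnRK2 kinases ran from -0.10 to 0.02 in smr1 and were at -0.0074 and 0.13 in Col-0. The 63 other genes annotated as protein phosphatase 2C had 56 members tested, with a median log2 fold change of -0.04. EdgeR, DESeq2 and limma voom called 0 of them. By edgeR before adjustment 0 were higher and 3 lower, where 3.96% of all tested loci were higher and 2.89% lower. The level of these other phosphatases stayed between -0.05 and -0.02 in smr1 and was 0.06 and 0.04 in Col-0.

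**Figure D4:**
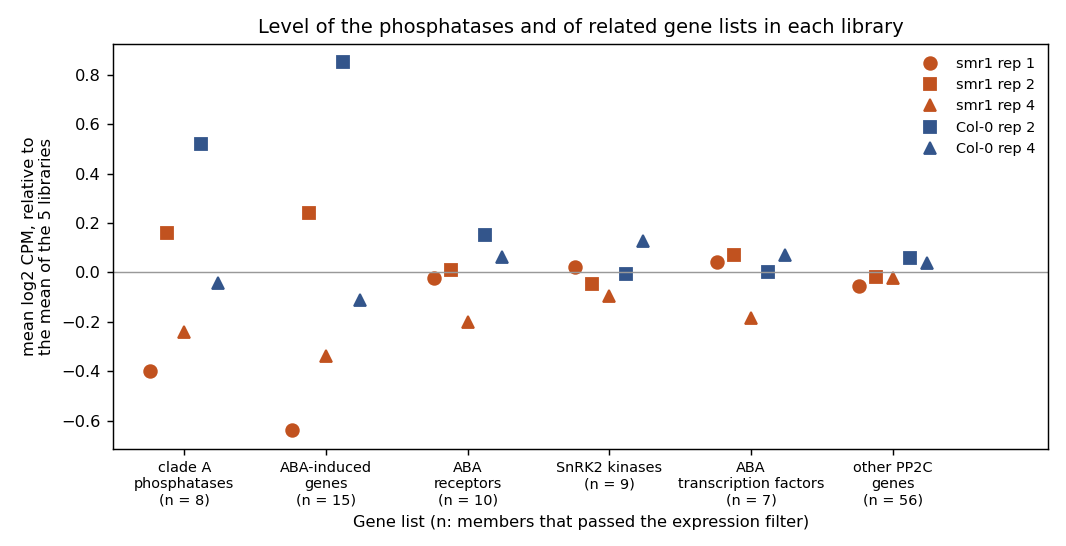
Mean log2 CPM of the tested members of each list in each library, relative to the mean of the 5 libraries (orange, smr1; blue, Col-0; symbols mark the replicate number). The clade A phosphatases spread from -0.40 to 0.52 and the ABA-induced genes from -0.64 to 0.85 in the same order of libraries, and the other PP2C genes stay between -0.05 and 0.06.

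Single members followed the family's summed CPM over the 5 libraries to different degrees. As a description over libraries of 2 genotypes, with no test, Pearson's r of log2 CPM with the sum was 0.993 for HAB2, 0.989 for ABI1, 0.970 for ABI2, 0.969 for HAB1, 0.958 for HAI1, 0.918 for AHG3, 0.883 for HAI2 and 0.476 for HAI3, and each member is part of the sum. Of 9970 other loci with a mean of at least 10 CPM, the 5 with the highest r over the same 5 libraries were AT5G60710, annotated as a RING-type zinc finger protein (1.000), CYP710A1, a sterol desaturase of the cytochrome P450 family (0.999), AT4G36960, an RNA-binding protein (0.999), TGA10, a bZIP transcription factor (0.999), and PYL7 (0.998). With 5 points and this many loci, high values are many. In CYP710A1 the level was 94.4, 181.6 and 111.5 CPM in smr1, against 314 and 157.6 CPM in Col-0, and in TGA10 it was 55.8, 107.5 and 65.3 CPM in smr1, against 198.8 and 95.2 CPM in Col-0. Neither was called (edgeR adjusted p = 0.725 for each).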

How the data were processed

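The authors' deposited tables give an estimated count (the expected count of reads) for 41671 transcript models in each of 5 libraries, per the file headers. A TPM value stands beside it. The submitters' processing notes name Salmon 0.7.2, CASAVA and TAIR10 without settings. Lengths were multiples of 3 in 93.4% of models, so these are mainly coding lengths. The deposited TPM values were summed per locus for levels and not tested. Expected counts were summed per locus and rounded.

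The genotypes were compared in edgeR 4.0.16 (R 4.3.3): expression filter (minimum count 10, minimum total 15), TMM factors, robust quasi-likelihood F test on genotype with 3 residual degrees of freedom, Benjamini-Hochberg over 20151 loci, threshold 0.05, two-sided, fold changes as smr1 over Col-0. The fit was tested on simulated data. DESeq2 1.42.0, limma voom 3.58.1, other factors and filters, the replicate number as a block, and each library left out were tried. The floor of 3 reads covers counting error only. Names, structures and sequences are from RefSeq on TAIR10.1, whose coding lengths equal the files' for all 12 member models and 96.5% of 34613 shared models. Coding sequences were aligned with mafft 7.526.

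Members and lists were chosen with earlier results of these data known. Named genes were the members, SMR1, the 3 smallest p in each list of partners, since none passed, and the 5 loci most like the summed members. EAR1 and RGLG5 were dropped because the annotation does not name them.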

Additional observations from a re-analysis of the deposited data

How the results depend on the processing

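No alternative called a clade A phosphatase: edgeR with all libraries, DESeq2, limma voom, RLE size factors, no expression filter, non-robust dispersion, the replicate block and each library left out gave 0 members higher and 0 lower. The median log2 fold change of the members was -0.41 with all libraries, -0.42 by DESeq2 and -0.33 with the replicate block, and ran from -0.65 to -0.12 with a library left out. Over all loci, edgeR called 1 higher and 0 lower, DESeq2 30 higher and 11 lower, limma voom 0 higher, edgeR without the filter 3 higher and with the replicate block 2 higher, and 0 were higher with any 1 library left out. HAI1 and HAI2 changed sign when Col-0 replicate 2 was left out, to 0.14 and 0.16, and reached -1.38 and -0.51 when Col-0 replicate 4 was. With single libraries left out, SNRK2.7 ran from -1.31 to 0.50, PUB12 from -0.31 to 0.088 and PUB13 from -0.080 to 0.11. PUB13 was at -0.018 with the replicate block. The genotypes share only the replicate numbers 2 and 4, which the labels tie to no batch or day. Deviations from the group means correlated at 0.40 for the replicate 2 libraries and 0.19 for the replicate 4 libraries over 20151 loci, but also at 0.17 for smr1 replicate 1 with Col-0 replicate 4, which share no number. The 2 Col-0 deviations mirror each other, so these values do not show pairing. With the block, ABI1 was at -0.47, HAI1 at -0.43 and AHG3 at -0.086, and 5 members (ABI1, ABI2, HAB1, HAB2 and HAI1) were lower before adjustment at p under 0.05, against 1 without it, where 5.16% of all loci were lower. With 1 Col-0 library left out, the other is assumed to vary like the smr1 libraries. With 2 Col-0 libraries, precision is limited by their number, and AHG1 by depth.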

Other observations

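Transcripts of photosynthesis, which root nuclei should hold at low levels, differed between libraries in an order unlike that of the phosphatases. LHCB1.1, RBCS1A and LHCB2.1 together stood at 9.20, 11.4 and 0.631 TPM in smr1 replicates 1, 2 and 4, against 1.86 and 0.540 TPM in Col-0 replicates 2 and 4. No member of that list was called by edgeR, with 2 higher at an unadjusted p under 0.05, where 3.96% of all tested loci were. DESeq2 also had 2 higher before adjustment, and limma voom had 0.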
